A study of Mus musculus with 6 samples.

Results

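The genes described are 33 members of the p53 pathway, chosen by name: Trp53 itself, its feedback regulators, and p53 target genes of cell cycle arrest, apoptosis, repair and metabolism. All 33 had a row among the 55334 gene IDs of the table, and all 33 passed the filter on low counts. The cells were Lewis lung carcinoma cells, a mouse lung cancer line, marked with green fluorescent protein (GFP). JAG2KO cells (3 libraries) carried a guide targeting Jag2, which encodes a Notch ligand, and Scramble cells (3 libraries) a scrambled guide. Both groups were grown as flank tumours until the endpoint, dissociated with Liberase and sorted as GFP-positive, CD45-negative and DAPI-negative cells. The sources used here do not state the strain, age or sex of the host mice, or whether the edited cells were a clone or a pool.

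p53 is a transcription factor that is held at a low level by the ubiquitin ligase Mdm2 and its relative Mdm4, and is released by DNA damage and other stress. It then activates genes that stop the cell cycle, trigger apoptosis, aid repair or adjust metabolism, and it activates Mdm2, which closes a feedback loop. p53 is regulated largely at the protein level, so the RNA of Trp53 and the activity of p53 need not move together. Loss or mutation of p53 is frequent in lung cancer, and whether these cells carry a p53 mutation was not analysed here.

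Libraries held 37036772 to 42914376 counts in JAG2KO and 39448304 to 43923565 in Scramble. The JAG2KO columns are named JagKO2, JagKO3 and JagKO4, and no source ties each library to its own mouse. The p-values therefore reflect the variation among these 6 samples alone, and that variation may be technical. Jag2 RNA was low, with 0.514, 0.799 and 1.11 CPM (counts scaled to library size) in JagKO2, JagKO3 and JagKO4, against 1.52, 1.1 and 1.02 CPM in Scramble replicates 1, 2 and 3. The groups overlapped (log2 fold change -0.58, edgeR adjusted p = 0.318), and RNA level does not show whether the gene was edited. Of the lung epithelial markers, Nkx2-1 and Sftpb were at 0 in every library and Epcam was between 0.178 and 1.45 CPM, while Krt18 was between 259 and 332 CPM. The 8 lung epithelial markers summed to 283 to 338 CPM in JAG2KO and 389 to 398 CPM in Scramble, and Krt8 was the member called lower, at 3.17 to 4.71 CPM in JAG2KO and 119 to 128 CPM in Scramble. The summed marker RNA of macrophages and leukocytes, of endothelial cells, and of fibroblasts and pericytes was higher in JAG2KO. The summed level of 12 macrophage and leukocyte markers was 97.2 to 117 CPM in JAG2KO and 63.9 to 73 CPM in Scramble. Of them 4 were called higher (33.3%, against 11.8% of all tested genes) and 1, Cd14, lower (8.33%, against 12.5%). Lyz2 alone measured 47.8 ± 5.73 CPM in JAG2KO and 21.3 ± 2.56 CPM in Scramble. The 8 endothelial markers summed to 42.2 to 54.6 CPM in JAG2KO and 26.9 to 30.6 CPM in Scramble (5 called higher, 62.5%). The 8 fibroblast and pericyte markers summed to 1284 to 2079 CPM in JAG2KO and 1052 to 1163 CPM in Scramble (4 higher, 50%, and 1 lower, 12.5%). The lower one, Fap, measured 3.61 ± 1.14 CPM in JAG2KO and 19 ± 1.11 CPM in Scramble. The 8 T, B and NK cell markers summed to 0.811 to 4.18 CPM in JAG2KO and 1.02 to 1.35 CPM in Scramble, so the groups overlapped. Of these 8, 2 were tested and 0 called. No marker of these 4 lists was at 0 in every library. Their part in the differences of p53 genes given here was not tested, and in bulk RNA a change in the share of a cell type and a change of RNA per cell cannot be told apart.

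A p53 response element is a pair of 10-base motifs, here called decamers, that follow the p53 decamer consensus. The consensus reads the same on both strands, and its core is C, then A or T at each of the next positions, then G. RefSeq promoter windows (GRCm38.p6), which run from 250 bases before to 50 bases after a transcription start, were found for 25 of the 33 genes. A full element with no spacer, intact cores and at most 2 mismatches to the consensus was present in 3 of 34 windows of these genes (8.82%) and in 52 of 32851 windows of all genes (0.158%). The genes were listed as p53 targets, so a larger share than in other promoters is no independent finding. The windows of the 3 genes with a full element are shown because they hold the letters that p53 is known to recognise, with the element in capitals and all sequences read 5′ to 3′ along the gene's strand.
Cdkn1a chr17:29090729-29091028 (plus strand): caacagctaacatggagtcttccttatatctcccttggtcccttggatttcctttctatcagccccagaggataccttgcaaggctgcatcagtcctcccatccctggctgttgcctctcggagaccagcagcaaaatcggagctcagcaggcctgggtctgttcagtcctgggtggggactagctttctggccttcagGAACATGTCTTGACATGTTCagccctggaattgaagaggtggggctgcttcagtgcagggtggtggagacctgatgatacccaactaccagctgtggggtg
Ckap2 chr8:22185770-22186069 (minus strand): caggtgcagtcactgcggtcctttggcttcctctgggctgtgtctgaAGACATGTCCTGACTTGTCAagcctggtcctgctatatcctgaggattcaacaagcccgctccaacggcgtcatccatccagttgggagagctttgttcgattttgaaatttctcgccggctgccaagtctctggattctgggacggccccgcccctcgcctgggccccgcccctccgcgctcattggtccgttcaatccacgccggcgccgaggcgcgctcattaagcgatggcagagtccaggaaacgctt
Gtse1 chr15:85859696-85859995 (plus strand): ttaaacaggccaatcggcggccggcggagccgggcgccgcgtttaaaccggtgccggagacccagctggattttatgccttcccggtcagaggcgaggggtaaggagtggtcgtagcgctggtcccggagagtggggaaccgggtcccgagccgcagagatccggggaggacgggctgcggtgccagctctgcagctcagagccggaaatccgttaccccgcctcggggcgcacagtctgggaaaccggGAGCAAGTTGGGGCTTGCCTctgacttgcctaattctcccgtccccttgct
In the Cdkn1a window, which belongs to the upstream of its annotated starts, the element begins 51 bases before the start and has 1 mismatch. The Ckap2 element begins 203 bases before the start with 2 mismatches, and the Gtse1 element begins 1 base before the start with 1 mismatch. Ckap2 and Gtse1 were called higher in JAG2KO (log2 fold changes 0.20 and 0.30) and Cdkn1a was not (0.25), and these fold changes were not tested against each other.

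At least 1 exact decamer was present in the windows of 12 of the 25 genes, that is in 38.2% of their windows, against 8.36% of all windows. Of 13 genes that were higher in JAG2KO and had a window, 7 held a decamer, as did 5 of 11 that were not called and 0 of 1 that was lower. A decamer of Cdkn1a that begins 73 bases before the start stands in lower case in the window printed for that gene. The decamers of the 9 genes without a full element are shown with 10 bases on each side, the decamer in capitals and the place being that of the 300-base window.
Trp53 chr11:69580109-69580408 (plus strand): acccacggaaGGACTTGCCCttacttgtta
Ccng1 chr11:40755237-40755536 (minus strand): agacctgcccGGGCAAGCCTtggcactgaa
Ei24 chr9:36797285-36797584 (minus strand): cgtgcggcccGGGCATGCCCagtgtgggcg
Aen chr7:78895677-78895976 (plus strand): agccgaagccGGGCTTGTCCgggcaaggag
Sesn1 chr10:41887189-41887488 (plus strand): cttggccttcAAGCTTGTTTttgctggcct
Mdm2 chr10:117710709-117711008 (minus strand): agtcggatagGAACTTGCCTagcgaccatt
Bax chr7:45466849-45467148 (minus strand): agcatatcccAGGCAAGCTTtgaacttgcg
Ppm1d chr11:85311004-85311303 (plus strand): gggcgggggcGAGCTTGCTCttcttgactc
Polk chr13:96519138-96519437 (minus strand): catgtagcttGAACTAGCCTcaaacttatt
The Trp53 decamer begins 75 bases before its start and that of Ei24 10 bases before. The letters TTTGAA, the cell cycle homology region of genes that p53 lowers through p21, were searched on both strands and stood in 14.7% of the windows of these genes and 17.9% of all windows. In Ckap2 they begin 101 bases before the start. In Bax they overlap the end of the decamer. A match is a description of letters and not a site shown to be bound, and genes with no match may have an element elsewhere.

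**Figure D1:**
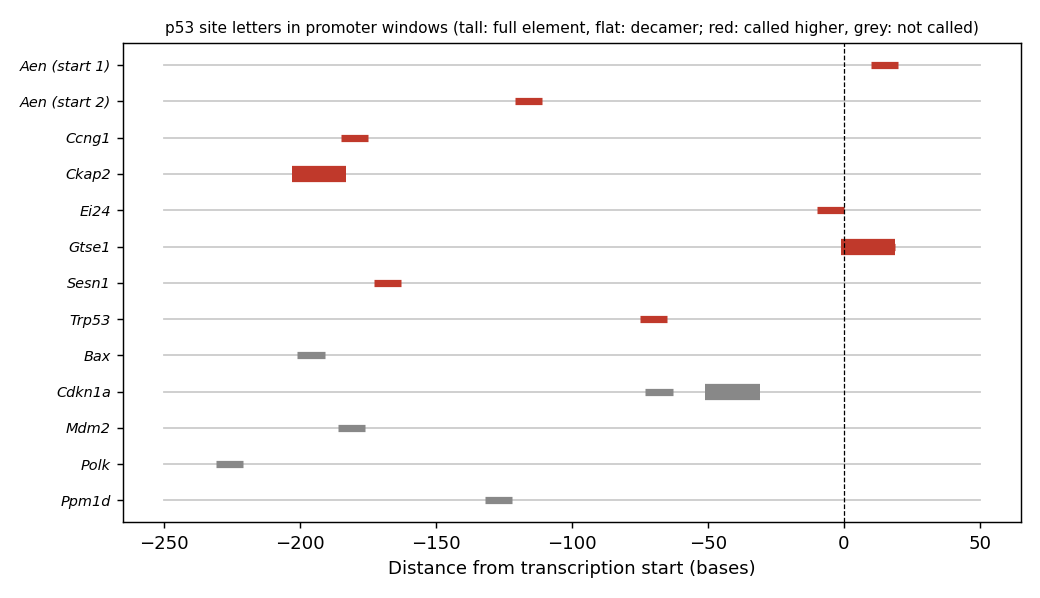
Position of p53 site letters in the promoter windows, as distance from the transcription start in bases. Tall bars are full elements, flat bars are decamers, red marks genes called higher in JAG2KO and grey marks genes not called; full elements stand at Ckap2, Gtse1 and Cdkn1a.

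Across the 33 genes, 15 were higher in JAG2KO, 1 was lower and 17 were not called at an edgeR adjusted p of 0.05. The share that was higher was 45.5%, against 11.8% of all 16049 tested genes, and the share that was lower was 3.03%, against 12.5%; in either direction it was 48.5%, against 24.3%. The median log2 fold change was 0.24 for the 33 genes and 0.00 for all tested genes. Most of the differences were small: 10 of the 15 were under 1.5-fold and 5 were at least 1.5-fold. Calls were kept by 10 genes in each of 12 alternatives (other scalings, filters, tools and each library left out), namely Trp53, Btg2, Plk2, Ei24, Trp53inp1, Phlda3, Fas, Eda2r, Sesn1 and Zmat3. With a library left out, the number of higher genes was 12 to 19. The number of lower genes was 2 without JagKO3 and 0 without JagKO4 or without Scramble replicate 1. Over all tested genes the same fits called 1356 to 1926 higher and 1349 to 2093 lower, against 1891 and 2005 with all libraries.

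**Figure D2:**
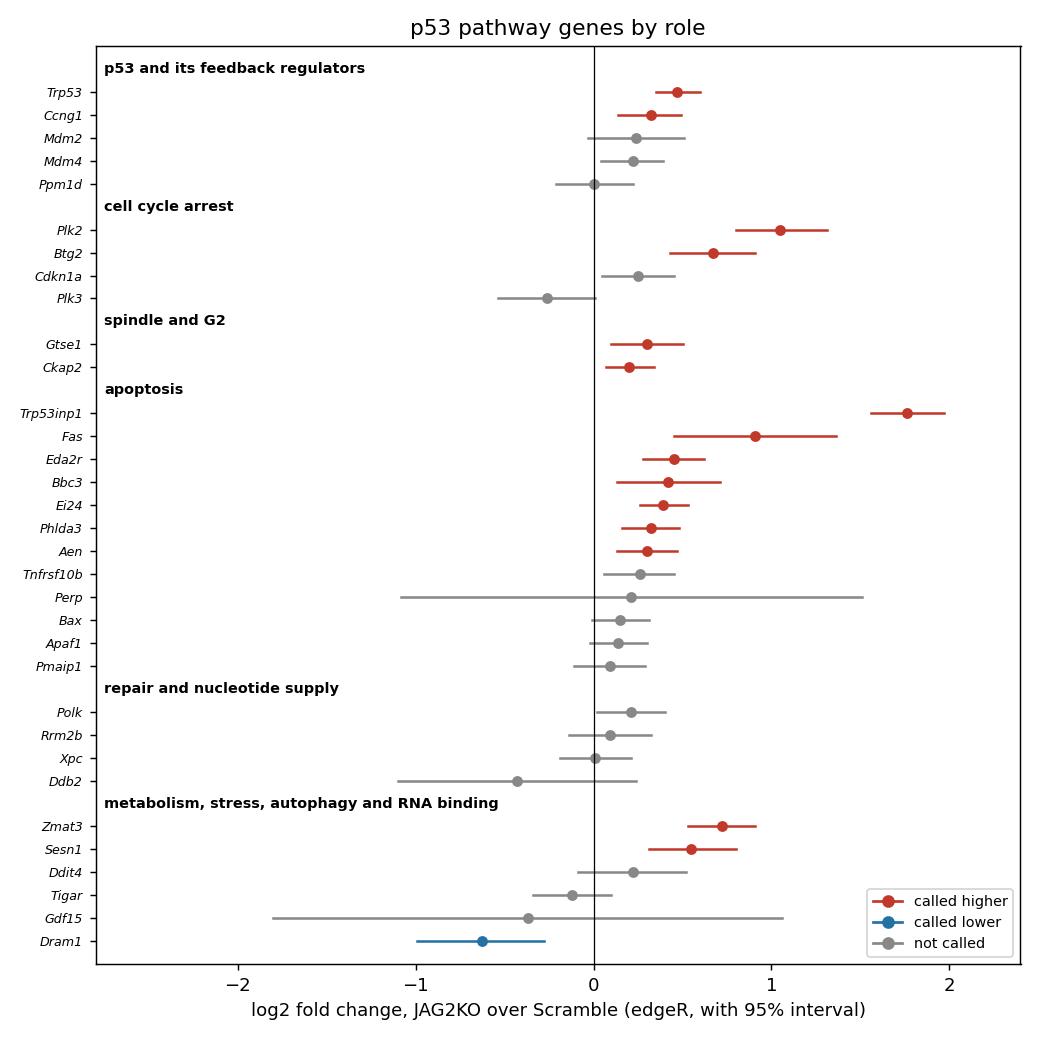
Log2 fold change of JAG2KO over Scramble for the 33 genes by role, with 95% intervals of each gene from the edgeR fit. Red genes were called higher, the blue gene (Dram1) lower and grey genes were not called. Above 0 lie 28 of the 33 points, and 8059 of all 16049 tested genes had a log2 fold change above 0.

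Trp53 itself was higher. The gene, which lies on chromosome 11 (69580359 to 69591873, plus strand, GRCm38), measured 387, 378 and 372 CPM in JagKO2, JagKO3 and JagKO4, against 262, 275 and 281 CPM in Scramble replicates 1, 2 and 3. All JAG2KO libraries lay above all Scramble libraries, and within each group the values were close, with a coefficient of variation of 1.96% in JAG2KO and 3.48% in Scramble. The log2 fold change was 0.47 (SE 0.06, 95% interval 0.35 to 0.60, edgeR adjusted p = 0.00013), or 1.39-fold, and it was 0.46 to 0.49 with any 1 library left out. Of the 20 tested genes flanking Trp53 in order of start, as many on each side, 3 were higher and 1 was lower. Their median was 0.22 on the log2 scale. Over all tested genes 11.8% were higher and 12.5% lower, with a median of 0.00.

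Of Trp53 and its 4 feedback regulators, 2 were called higher (40%, against 11.8% of all tested genes): Trp53 and Ccng1. Ccng1 encodes cyclin G1, a p53 target that brings a phosphatase to Mdm2. It measured 277, 222 and 245 CPM in JagKO2, JagKO3 and JagKO4, against 190, 207 and 201 CPM in Scramble replicates 1, 2 and 3. The groups did not overlap, with a log2 fold change of 0.32 (edgeR adjusted p = 0.0141, SE 0.08), and the call was lost without Scramble replicate 1 (adjusted p = 0.0598). Mdm2, the main p53 ubiquitin ligase and a classical target, measured 149, 232 and 182 CPM in JagKO2, JagKO3 and JagKO4, against 162, 157 and 158 CPM in Scramble replicates 1, 2 and 3. Its Scramble values were nearly equal while the JAG2KO values ranged from below to above them, with a coefficient of variation of 22.3% in JAG2KO and 1.81% in Scramble. The log2 fold change of Mdm2 was 0.24 (95% interval -0.03 to 0.51, edgeR adjusted p = 0.18). It was 0.38 without JagKO2, where it passed (adjusted p = 0.0044), as it did on all libraries with no filter on low counts (adjusted p = 0.00652). The fit with no filter kept 29041 genes and gave far smaller adjusted p for some genes, such as an edgeR adjusted p of 1.37e-43 against 5.75e-05 for Plk2. That limit holds for each pass with no filter given below. On all libraries Mdm2 did not pass with the other scalings, the stricter filter, DESeq2 or limma-voom (adjusted p = 0.115 to 0.216). Mdm4, which binds and inhibits p53, had a log2 fold change of 0.22 (adjusted p = 0.0664), and passed in 5 of 12 alternatives. On all 6 libraries these were DESeq2 (adjusted p = 0.0446), a filter of CPM of 1 in 3 libraries (0.0497) and no filter (0.0187), and the others were the fits without JagKO2 (0.0396) or Scramble replicate 1 (0.0144). Ppm1d, a phosphatase that switches p53 signalling off, measured 25.1 ± 0.765 CPM in JAG2KO and 25 ± 2.73 CPM in Scramble (SD, n = 3 each), with an interval of -0.21 to 0.22 on the log2 scale.

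**Figure D3:**
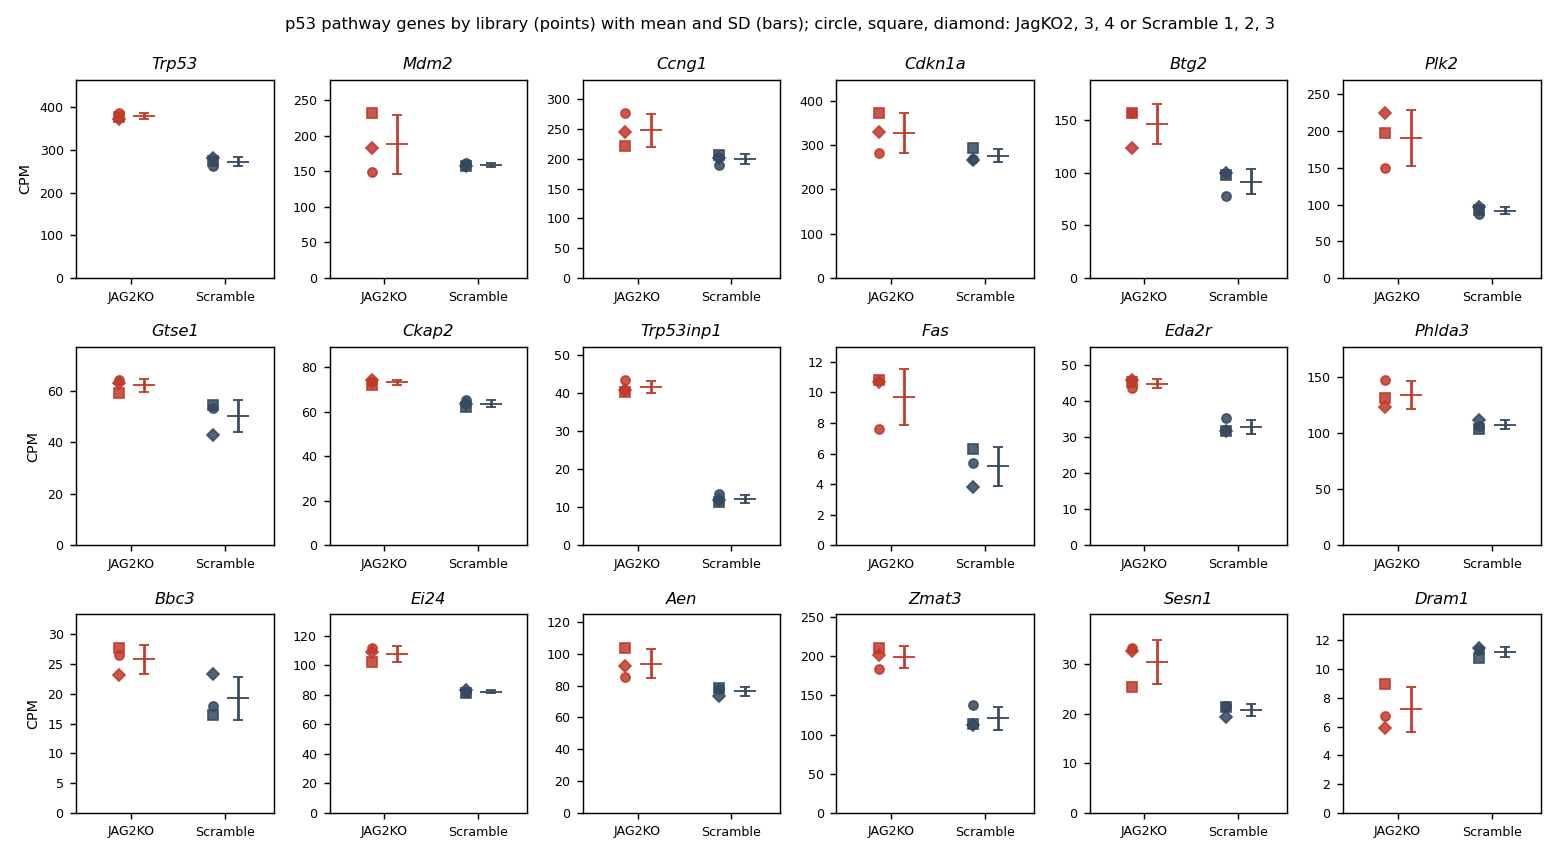
CPM of 18 of the genes in each library, JAG2KO in red and Scramble in slate blue, with the mean and SD of 3 libraries beside the points; each vertical axis starts at 0. Trp53 sits between 372 and 387 CPM in JAG2KO and between 262 and 281 CPM in Scramble, whereas the Mdm2 and Cdkn1a points of the groups overlap.

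Of the 4 arrest genes, 2 were called higher (50%, against 11.8% of all tested genes), Plk2 and Btg2. Cdkn1a encodes p21, the inhibitor of cyclin-dependent kinases through which p53 stops the cell cycle. It measured 282, 373 and 329 CPM in JagKO2, JagKO3 and JagKO4, against 268, 294 and 267 CPM in Scramble replicates 1, 2 and 3. The value of JagKO2 lay below Scramble replicate 2, and the groups overlapped. For Cdkn1a the log2 fold change was 0.25 (SE 0.09, 95% interval 0.05 to 0.45, edgeR adjusted p = 0.0666); without JagKO2 it was 0.35 and passed (adjusted p = 0.00258), as it did on all libraries with DESeq2 (adjusted p = 0.0305) and with no filter (adjusted p = 0.00353). Plk2, a polo-like kinase induced by stress (chromosome 13, 110395046 to 110400844, plus strand), measured 150, 197 and 225 CPM in JagKO2, JagKO3 and JagKO4, against 86.9, 92.1 and 96.7 CPM in Scramble replicates 1, 2 and 3. Every JAG2KO value was well above the Scramble range, a 2.08-fold difference of means with a log2 fold change of 1.05 (edgeR adjusted p = 5.75e-05, SE 0.12). Its relative Plk3 was not called: it measured 38.3 to 58.3 CPM in JAG2KO and 54.1 to 63.1 CPM in Scramble (log2 fold change -0.26, adjusted p = 0.158), and without JagKO3 its log2 fold change was -0.43 and passed (adjusted p = 0.0157), as it did with no filter (adjusted p = 0.0243). The fold changes of Plk2 and Plk3 were not tested against each other. Btg2, an antiproliferative cofactor of mRNA deadenylation, measured 157, 157 and 124 CPM in JagKO2, JagKO3 and JagKO4, against 77.6, 97.5 and 100 CPM in Scramble replicates 1, 2 and 3. Its groups were separate, with a log2 fold change of 0.67 (edgeR adjusted p = 0.000953, SE 0.11).

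Gtse1 and Ckap2, whose products bind microtubules in G2 and mitosis, were higher by small amounts. Gtse1, which is also known to restrain p53, measured 64.2, 59.3 and 63.1 CPM in JagKO2, JagKO3 and JagKO4, against 53.2, 54.7 and 43.1 CPM in Scramble replicates 1, 2 and 3. The groups did not overlap, with the lowest value in Scramble replicate 3 (log2 fold change 0.30, SE 0.09, edgeR adjusted p = 0.031). Without JagKO2, JagKO4 or Scramble replicate 3 the adjusted p of Gtse1 was 0.0538, 0.0944 and 0.11. Ckap2 measured 73.5, 72.2 and 74.3 CPM in JagKO2, JagKO3 and JagKO4, against 65.3, 62.4 and 63.5 CPM in Scramble replicates 1, 2 and 3. Both groups were tight and separate, but the difference was only 1.15-fold (log2 fold change 0.20, SE 0.06, edgeR adjusted p = 0.0345). That call was lost without JagKO3, JagKO4 or Scramble replicate 1, 2 or 3 (adjusted p = 0.0563, 0.109, 0.0572, 0.109 and 0.0941).

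All 12 apoptosis genes had a log2 fold change above 0, as did 8059 of all 16049 tested genes. Of the 12, 7 were called higher (58.3%, against 11.8% of all tested genes) and 0 lower (against 12.5%). By an unadjusted p under 0.05, 0 were lower, against 2956 of all 16049 tested genes. DESeq2 and limma-voom also called 0 of the 12 lower, against 2105 and 2037 of all tested genes. Trp53inp1, a nuclear stress protein gene whose product joins p53 to its activating kinases and also acts in autophagy, differed most among the 33 genes. The gene (chromosome 4, 11156431 to 11174379, plus strand) measured 43.5, 40.5 and 41 CPM in JagKO2, JagKO3 and JagKO4, against 13.5, 11.4 and 12 CPM in Scramble replicates 1, 2 and 3. The groups were far apart, at 3.39-fold, with a log2 fold change of 1.76 (edgeR adjusted p = 1.33e-07, SE 0.09). Of its 20 flanking tested genes 5 were higher, where 11.8% of all tested genes were. The median of the 20 was 0.36 on the log2 scale, against 0.00 for all tested genes.

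Receptor genes of the apoptosis group were higher or close to the threshold. Fas, the receptor of Fas ligand, measured 7.62, 10.8 and 10.7 CPM in JagKO2, JagKO3 and JagKO4, against 5.37, 6.33 and 3.79 CPM in Scramble replicates 1, 2 and 3. It was a low gene whose groups did not overlap, with a log2 fold change of 0.91 (edgeR adjusted p = 0.00773, SE 0.21). Fas lies on chromosome 19, where 36 of 561 other tested genes were higher and 131 lower, with a median of -0.14 on the log2 scale. Among all tested genes 11.8% were higher and 12.5% lower. Eda2r, a receptor of ectodysplasin A2 on chromosome X, measured 43.5, 45.2 and 45.8 CPM in JagKO2, JagKO3 and JagKO4, against 35.2, 31.7 and 31.6 CPM in Scramble replicates 1, 2 and 3. The groups were separate, with a log2 fold change of 0.45 (edgeR adjusted p = 0.00146, SE 0.08). Tnfrsf10b, the mouse receptor of the death ligand TRAIL, measured 77.6 ± 9.08 CPM in JAG2KO and 65.0 ± 3.36 CPM in Scramble (log2 fold change 0.26, adjusted p = 0.0529). Without JagKO2 the log2 fold change of Tnfrsf10b was 0.35 and passed (adjusted p = 0.00291). On all libraries it passed with DESeq2 (adjusted p = 0.0329), a filter of CPM of 1 in 3 libraries (0.0417) and no filter (0.00791).

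Of the genes of the mitochondrial path, Bbc3 was higher, and Bax, Pmaip1 and Apaf1 did not pass. Bbc3, which encodes the BH3-only protein PUMA, measured 26.6, 27.8 and 23.1 CPM in JagKO2, JagKO3 and JagKO4, against 18, 16.5 and 23.4 CPM in Scramble replicates 1, 2 and 3. Scramble replicate 3 lay above JagKO4, so the groups overlapped (log2 fold change 0.42, SE 0.13, edgeR adjusted p = 0.036). The call of Bbc3 was lost without JagKO3, Scramble replicate 1 or Scramble replicate 2 (adjusted p = 0.0984, 0.119 and 0.132). Bax, whose product opens the outer mitochondrial membrane, measured 89.9 ± 7.3 CPM in JAG2KO and 80.9 ± 3.98 CPM in Scramble, and the interval of its log2 fold change was -0.01 to 0.31. Pmaip1, which encodes the BH3-only protein Noxa, and Apaf1, the scaffold of the apoptosome, had intervals of -0.11 to 0.29 and -0.02 to 0.30. Differences as large as that of Trp53 lay outside the intervals of these 3 genes.

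Other genes of the apoptosis group were higher by 1.23- to 1.31-fold. Phlda3, which encodes an inhibitor of Akt recruitment to the membrane, measured 147, 131 and 123 CPM in JagKO2, JagKO3 and JagKO4, against 106, 104 and 112 CPM in Scramble replicates 1, 2 and 3 (log2 fold change 0.32, edgeR adjusted p = 0.00862). Aen, a nuclease gene, measured 85.5, 104 and 92.3 CPM in JagKO2, JagKO3 and JagKO4, against 77.7, 78.6 and 73.3 CPM in Scramble replicates 1, 2 and 3 (log2 fold change 0.30, edgeR adjusted p = 0.0164). Neither gene's groups overlapped, and Aen lost its call without JagKO3 (adjusted p = 0.0646) or Scramble replicate 3 (adjusted p = 0.0661). Ei24, an endoplasmic reticulum membrane protein gene, measured 112, 102 and 109 CPM in JagKO2, JagKO3 and JagKO4, against 82.1, 81 and 82.9 CPM in Scramble replicates 1, 2 and 3. Its groups were separate (log2 fold change 0.39, SE 0.06, edgeR adjusted p = 0.000774), but the opposite-strand gene model Gm26787 overlaps its exons, and no source used here says whether reads were counted by strand. Opposite-strand gene models also overlap exons of Cdkn1a, Plk3, Rrm2b and Tigar, and a same-strand model those of Bax. Perp, a membrane protein gene of desmosomes and p53-driven death, was nearly silent at 0.323 to 2.21 CPM in JAG2KO and 0.482 to 1.5 CPM in Scramble. Its coefficient of variation was 79.1% in JAG2KO and 49.8% in Scramble, and the interval of its log2 fold change was -1.08 to 1.51.

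None of the 4 genes of repair and nucleotide supply was called in either direction, against 24.3% of all tested genes. At an unadjusted p under 0.05 there was 1, Polk, which was higher, as were 2858 of all 16049 tested genes. DESeq2 and limma-voom both called 0 of the 4, against 2155 and 1899 higher and 2105 and 2037 lower among all tested genes. Xpc, which recognises DNA lesions in nucleotide excision repair, measured 21.9 ± 0.833 CPM in JAG2KO and 21.8 ± 1.26 CPM in Scramble, with a log2 interval of -0.19 to 0.21. Ddb2, which recognises ultraviolet lesions, was low at 1.56 ± 0.426 CPM in JAG2KO and 2.11 ± 0.488 CPM in Scramble. The exons of Ddb2 overlap the opposite-strand gene Acp2, and its interval of -1.10 to 0.24 was wide. Polk, a translesion DNA polymerase gene, had a log2 fold change of 0.21 (adjusted p = 0.107). Rrm2b, the p53-inducible subunit of ribonucleotide reductase, had one of 0.09 (adjusted p = 0.586) and an interval of -0.14 to 0.32.

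The 6 genes of metabolism, stress, autophagy and RNA binding held the only lower call (16.7%, against 12.5% of all tested genes). Of these 6, 2 were higher (33.3%, against 11.8%). Zmat3, a zinc finger gene whose product binds RNA and alters splicing, measured 184, 211 and 202 CPM in JagKO2, JagKO3 and JagKO4, against 138, 113 and 112 CPM in Scramble replicates 1, 2 and 3. The groups were well separated (log2 fold change 0.72, SE 0.09, edgeR adjusted p = 0.000118). Zmat3 lies on chromosome 3, where 200 of 829 other tested genes were higher and 41 lower, and 8 of its 20 flanking tested genes were higher. Among all tested genes 11.8% were higher and 12.5% lower. Sesn1, a sestrin that restrains mTORC1, measured 33.3, 25.3 and 32.6 CPM in JagKO2, JagKO3 and JagKO4, against 21.5, 21.3 and 19.4 CPM in Scramble replicates 1, 2 and 3. Its groups did not overlap (log2 fold change 0.55, SE 0.11, edgeR adjusted p = 0.00368), and 9 of its 20 flanking tested genes were higher, with a neighbourhood median of 0.36 on the log2 scale. Among genes that were not called, 9 of the 20 flanking genes of Tnfrsf10b were higher (median 0.27). For Ddit4 there were 8 (median 0.26) and for Perp 7 (median 0.29). The part of such neighbourhoods in the values of Zmat3, Sesn1, Trp53inp1, Tnfrsf10b, Ddit4 and Perp was not tested.

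Dram1, a lysosomal membrane protein gene of autophagy, fell. It measured 6.73, 8.97 and 5.91 CPM in JagKO2, JagKO3 and JagKO4, against 11.3, 10.8 and 11.5 CPM in Scramble replicates 1, 2 and 3. The groups were separate (log2 fold change -0.63, SE 0.16, edgeR adjusted p = 0.0145), and the call was lost without JagKO4 (adjusted p = 0.059) or Scramble replicate 1 (adjusted p = 0.0533). Ddit4, an mTORC1 inhibitor gene also induced by low oxygen, measured 152 to 255 CPM in JAG2KO and 169 to 186 CPM in Scramble. Its log2 fold change was 0.22 (adjusted p = 0.29), or 0.39 without JagKO2, where it passed (adjusted p = 0.00233), and it also passed with no filter (adjusted p = 0.0164). Tigar, which lowers glycolytic flux, measured 18 ± 1.12 CPM in JAG2KO and 19.5 ± 1.28 CPM in Scramble (log2 fold change -0.12, adjusted p = 0.428). Gdf15, a secreted stress cytokine gene, was at 0.208 to 0.799 CPM in JAG2KO and 0.178 to 0.964 CPM in Scramble. Its coefficient of variation was 65.8% in JAG2KO and 66.6% in Scramble, and the interval of its log2 fold change was -1.80 to 1.06.

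Libraries of both groups differed among themselves in these genes. JagKO3 had the highest of the 3 values for 15 of the 33 genes (45.5%), Mdm2, Cdkn1a, Bax, Aen and Tnfrsf10b among them, and for 32.6% of all tested genes. JagKO3 also had the lowest of the 3 values for 12 of the 33 genes (36.4%, against 34.6% of all tested genes), and JagKO2 for 13 (39.4%, against 35.9%). In Scramble, replicates 1 and 3 each had the highest value for 13 genes (39.4%, against 33.1% and 34.9% of all tested genes). Scramble replicate 2 had the lowest for 14 (42.4%, against 32.2%). Leaving JagKO2 out gave 19 higher genes, and Mdm2, Mdm4, Cdkn1a, Tnfrsf10b and Ddit4 then passed. Over all tested genes that fit called 1926 higher, against 1891 with all libraries. These counts describe the libraries and were not tested.

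**Figure D4:**
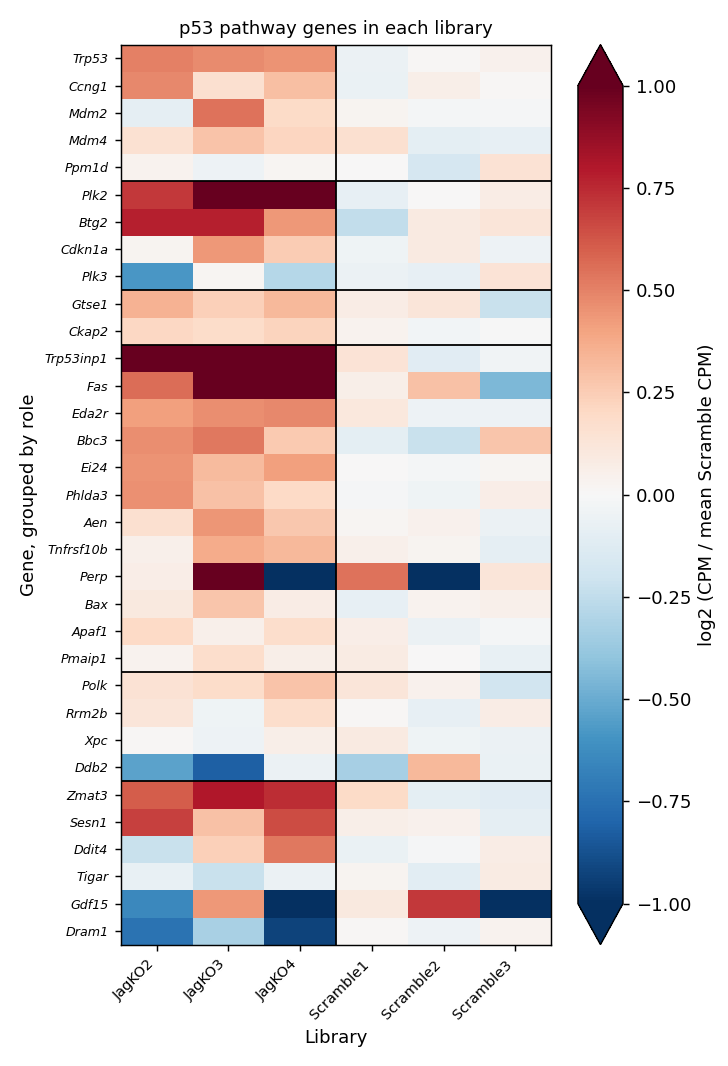
Log2 ratio of each library's CPM to the Scramble mean for the 33 genes, grouped by role with lines between roles and between JAG2KO and Scramble; the colour scale ends at -1 and 1. Trp53inp1 is past the end of the scale in all 3 JAG2KO libraries, Trp53 is even across them, and Mdm2, Cdkn1a and Ddit4 are lowest in JagKO2.

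Levels of different genes were compared per kilobase of merged exon (CPM per kb). In JAG2KO the highest were Ddit4 with 117 ± 29.4, Trp53 with 93.7 ± 1.84, Cdkn1a with 92.3 ± 12.7 and Phlda3 with 85.9 ± 8.01 CPM per kb, neighbours in an order that do not differ beyond their SDs. In Scramble the same genes had 101 ± 5.05, 67.4 ± 2.35, 77.7 ± 4.3 and 68.9 ± 2.42 CPM per kb, so Trp53 stood below Cdkn1a there. Ccng1 followed with 70.6 ± 7.93 CPM per kb in JAG2KO and 56.8 ± 2.54 in Scramble. At the other end were Perp (0.617 in JAG2KO and 0.529 in Scramble), Ddb2 (0.571 in JAG2KO and 0.771 in Scramble) and Gdf15 (0.249 in JAG2KO and 0.32 in Scramble). The called genes thus covered both abundant transcripts and rare ones such as Fas, with 4.7 ± 0.871 CPM per kb in JAG2KO and 2.51 ± 0.622 in Scramble.

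A further 3 lists place these genes within the pathway. Of 44 other known p53 target genes, 43 were tested, of which 12 were higher (27.9%, against 11.8% of all tested genes) and 8 lower (18.6%, against 12.5%); their median was 0.16 on the log2 scale. The spindle protein gene Psrc1 measured 89.3 ± 2.24 CPM in JAG2KO and 62.0 ± 1.69 CPM in Scramble (log2 fold change 0.53, edgeR adjusted p = 9.59e-05). Psrc1 and others of the 12 higher genes lie on chromosome 3. There, 200 of 829 tested genes other than Zmat3 were higher and 41 lower, with a median of 0.18 on the log2 scale. The part of the chromosome in these calls was not tested. The adenylate kinase gene Ak1, the tetraspanin gene Cd82 and the ribosomal protein gene Rps27l were also higher (log2 fold changes 0.60, 0.59 and 0.31). The membrane protein gene Trp53i11 went the other way, with 27.3 ± 7.56 CPM in JAG2KO and 64.4 ± 5.61 CPM in Scramble (log2 fold change -1.24, edgeR adjusted p = 0.000124). The number of lower genes in this list was 5 without JagKO3, 4 without JagKO4 or Scramble replicate 3, and 3 without Scramble replicate 2. Over all tested genes these fits called 1349 to 1718 lower, against 2005 with all libraries. The number of higher genes in this list was 9 to 15 with a library left out, against 1356 to 1926 of all tested genes.

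Of 25 upstream regulators of p53, 22 were tested, of which 4 were higher (18.2%, against 11.8% of all tested genes) and 5 lower (22.7%, against 12.5%), and the median was -0.02 on the log2 scale. Ppp1r13l, which encodes the p53 inhibitor iASPP, fell: it measured 13.6, 13.6 and 13.7 CPM in JagKO2, JagKO3 and JagKO4, against 28.2, 27.2 and 28.3 CPM in Scramble replicates 1, 2 and 3. The groups were tight and far apart (log2 fold change -1.03, SE 0.09, edgeR adjusted p = 8.59e-06). Sirt1, a deacetylase of p53, and Atr, a kinase of the damage response, were higher (log2 fold changes 0.39 and 0.30, adjusted p = 0.00591 and 0.00819), although opposite-strand gene models overlap the exons of both; same-strand models overlap those of Atr and Ep300. The p53 ubiquitin ligase gene Cop1 was lower (log2 fold change -0.23, adjusted p = 0.0215) and the acetyltransferase gene Ep300 higher (log2 fold change 0.26, adjusted p = 0.0282). Cop1 lost its call without JagKO4 or Scramble replicate 1, 2 or 3 (adjusted p = 0.0815, 0.0984, 0.0547 and 0.0556). Ep300 lost its call without JagKO3, JagKO4, Scramble replicate 1 or Scramble replicate 3 (adjusted p = 0.0937, 0.0642, 0.104 and 0.0513). The number of lower regulators was 3 without JagKO2 or JagKO3, 2 without JagKO4, Scramble replicate 1 or Scramble replicate 3, and 1 without Scramble replicate 2. The number of higher ones was 2 without Scramble replicate 3. Over all tested genes, fits with a library left out called 1356 to 1926 higher and 1349 to 2093 lower, against 1891 and 2005 with all libraries. Cdkn2a, the source of the Mdm2 inhibitor Arf, was picked out after its values were seen: it had 22, 8 and 10 counts in JagKO2, JagKO3 and JagKO4, against 1, 4 and 0 counts in Scramble replicates 1, 2 and 3. It was below the filter and was not tested.

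Of 20 cell cycle genes that p53 is known to lower through p21, 0 were higher and 5 lower, with a median of -0.11 on the log2 scale. The share called was 25% in either direction, against 24.3% of all tested genes, and 25% lower, against 12.5%. At an unadjusted p under 0.05, 1 was higher and 8 were lower, against 2858 and 2956 of all 16049 tested genes. DESeq2 and limma-voom each called 0 of the 20 higher and 5 lower. Of all 16049 tested genes they called 2155 and 1899 higher and 2105 and 2037 lower. Cyclin B2 (Ccnb2) measured 66.1 ± 2.46 CPM in JAG2KO and 98.2 ± 5.37 CPM in Scramble (log2 fold change -0.57, edgeR adjusted p = 9.03e-05), and the mitotic kinase gene Aurka was lower by a log2 fold change of -0.34 (adjusted p = 0.00694). Foxm1, a transcription factor of mitotic genes whose exons same-strand models overlap, Aurkb and Cdk1, both mitotic kinases, were lower by log2 fold changes of -0.22, -0.24 and -0.22 (adjusted p = 0.0312, 0.0425 and 0.0473). Each of these 3 lost its call in 4 of the 6 fits with a library left out: Foxm1 without JagKO4 or any Scramble replicate (adjusted p = 0.057 to 0.129), Aurkb without JagKO3, JagKO4, Scramble replicate 2 or Scramble replicate 3 (0.0688 to 0.182), and Cdk1 without JagKO2, JagKO4, Scramble replicate 1 or Scramble replicate 2 (0.105 to 0.219), and Cdk1 also with RLE factors, library totals or the stricter filter (0.0543 to 0.0549). Gtse1 and Ckap2, which also belong to G2 and mitosis, were higher in the same libraries. The number of lower genes was 2 without JagKO4 or Scramble replicate 2 and 3 without Scramble replicate 1 or Scramble replicate 3, and without JagKO2 1 gene was higher. Over all tested genes, fits with a library left out called 1349 to 2093 lower, against 2005 with all libraries, and without JagKO2 1926 were higher.

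**Figure D5:**
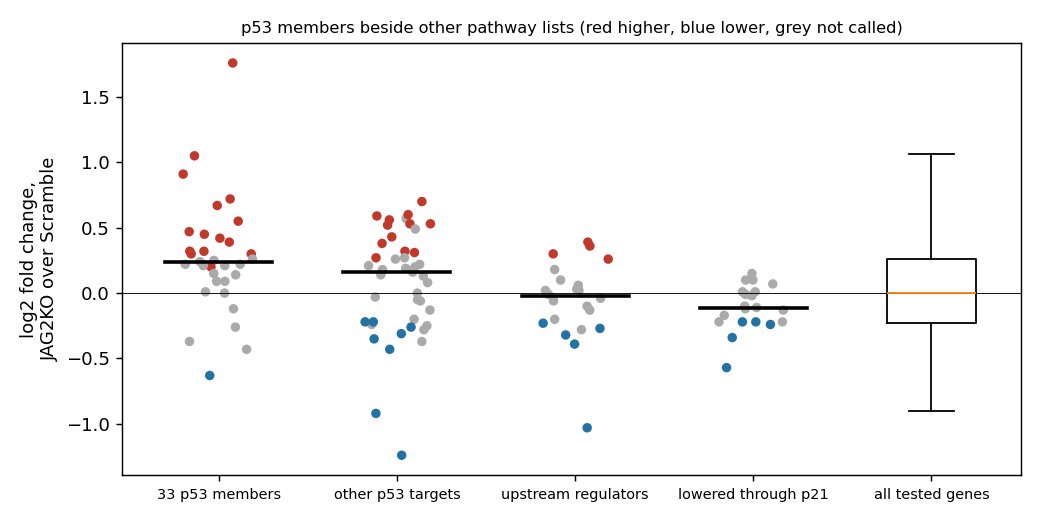
Log2 fold change of JAG2KO over Scramble for the 33 p53 genes and 3 other pathway lists (points, with black bars at medians) beside all tested genes (box from the 25th to the 75th percentile, whiskers at the 5th and 95th). The medians are 0.24, 0.16, -0.02 and -0.11 for the lists and 0.00 for all tested genes.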

How the data were processed

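RNA from 6 libraries of sorted mouse tumour cells was sequenced as polyA RNA. The values the authors deposited are counts, whole and not normalized, for each gene in each library. Per the submitters' processing notes the tools were STAR 2.7.7a and HTSeq 0.11.2; for genome build, annotation, strand setting and filters, nothing is stated in the sources used here. Of 55334 versioned Ensembl IDs, 55154 matched a symbol; 32 of the 33 p53 genes also matched GENCODE M21 (GRCm38) by version, and all 33 by stable ID. Places, exon lengths and overlaps come from that release. The JAG2KO columns are numbered 2 to 4 and the titles 1 to 3, so those columns carry no replicate number.

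The test was edgeR 4.0.16 in R 4.3.3: filterByExpr (minimum count 10, minimum total 15), TMM factors, quasi-likelihood F test, Benjamini-Hochberg adjustment over 16049 genes, called under 0.05. CPM uses TMM-scaled library sizes, and 3 counts were worth 0.068 to 0.0811 CPM. Standard errors are the fold change divided by the square root of F; 95% intervals use the fit's moderated degrees of freedom and are not adjusted. Chi-square per degree of freedom between libraries of a group was 12.2 to 31, above sampling noise. As alternatives, RLE factors, unscaled library totals, no filter, CPM of 1 in 3 libraries, DESeq2 1.42.0, limma-voom (limma 3.58.1) and leaving out each library in turn were run.

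The p53 genes, the other lists and the tests were chosen with earlier results of these data known. Every p53 gene is named; of each other pathway list, up to 5 called genes with the smallest p are. On simulated counts of this comparison (200 of 15635 to 15700 genes changed, 5 draws), edgeR recovered 65.7% of genes changed 1.5-fold, 62.1% of those changed 2-fold and 92.4% of those changed 4-fold. Unchanged genes made up 7.11% of its calls. In the data 3896 of 16049 genes were called, so the adjustment was stricter in the simulation and these shares do not give the recovery here. The changed genes were drawn once from all expression levels, with different genes for each size, so the sizes are not comparable.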

Additional observations from a re-analysis of the deposited data

How the results depend on the processing

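No paired analysis was possible because the JAG2KO columns carry numbers that do not match the titles, so no replicate number joins a JAG2KO library to a Scramble library. With RLE factors, library totals alone and limma-voom, 15 of the p53 genes were higher and 1 lower, as in the reported fit. There were 17 higher with a CPM of 1 in 3 libraries, 18 with DESeq2, and 20 higher and 2 lower with no filter on low counts. Over all genes, of 12873, 16049 and 29041 tested, these fits called 1957, 2155 and 2301 higher and 1865, 2105 and 2087 lower. With no filter the log2 fold change of Plk2 was 1.06, against 1.05 in the reported fit. Its edgeR adjusted p was 1.37e-43, against 5.75e-05, and that of Btg2 was 1.23e-17, against 0.000953. For Ckap2 the edgeR adjusted p was larger, 0.0496 against 0.0345. Leaving out a library gave 12 to 19 higher and 0 to 2 lower p53 genes, and 2 to 4 higher and 1 to 3 lower upstream regulators. For the other targets it gave 9 to 15 higher and 3 to 10 lower, and for the p21 list 0 to 1 higher and 2 to 4 lower. Over all tested genes the same fits called 1356 to 1926 higher and 1349 to 2093 lower, against 1891 and 2005 in the reported fit. Trp53 stayed higher in all 12 alternatives. Of the p53 genes that were not called, 4 turned sign: Ppm1d (-0.06 to 0.08 with a library left out), Xpc (-0.02 to 0.07), Perp (-0.57 to 0.67, and -0.07 with limma-voom) and Gdf15 (-1.03 to 0.17). The cause of these shifts was not tested. Libraries held 37036772 to 43923565 counts, and 3 counts, the limit that a count of 0 allows, were worth 0.068 to 0.0811 CPM.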
